A study of Mus musculus with 12 samples.

Results

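The genes described here encode the classical and nonclassical major histocompatibility complex (MHC) class I chains and the machinery that loads them with peptide: H2-K1, H2-D1, H2-T23, H2-Q7, H2-Q10, B2m, Tap1, Tap2, Tapbp and Nlrc5. They are 10 of the 23420 genes listed in the count tables and were taken by name. Of these, 9 passed the filter on low counts, which left 12759 genes to test, and H2-Q7 had a count of 0 in all 12 libraries.

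Nearly every nucleated cell shows fragments of its own proteins on class I molecules, and a CD8 T cell reads such a complex on another cell with its T cell receptor. A class I molecule is a heavy chain paired with beta-2-microglobulin. Peptides cut by the proteasome are carried into the endoplasmic reticulum by the transporter TAP, and tapasin holds empty class I next to TAP until a peptide binds. T cells themselves carry abundant class I, and the genes of the pathway share promoter elements bound by NLRC5, interferon-induced factors and NF-kappaB.

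RNA was sequenced from mouse spleen cells in 4 groups of 3 libraries, wild type and Otub1 knockout, each taken fresh or after stimulation. The mice were on the C57BL/6 background, were 6 to 8 weeks old and all carried the OT-I transgene, a T cell receptor for an ovalbumin peptide; the knockout mice lacked Otub1, a deubiquitinase, through CD4-Cre, which acts in developing T cells and so in CD4 and CD8 T cells alike. Stimulated cells spent 24 h in culture with antibodies to CD3 (1 µg/ml, bound to the plate) and CD28 (1 µg/ml), so that stimulation and culture form 1 factor. The design text names naive CD8 T cells, a cell type tag names splenic dendritic cells, the genotype tag reads OTUB1-DKO, and 1 protocol calls all samples fresh cells; nothing in the labels gives a batch or tells whether each replicate is its own animal, so a p-value here reflects the spread among the deposited samples, which may be technical.

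Libraries held 15064488 to 25920035 gene counts. Fresh wild-type libraries held Cd8a, a chain of the CD8 coreceptor, at 1519 ± 33.6 CPM (counts per 1000000 counts of the library, mean ± SD, n = 3), beside transcripts of antigen-presenting cells: Itgax, a dendritic cell marker, was at 36.2 ± 5.05 CPM and fell to 1.52 ± 0.322 CPM after stimulation. Of the 14 dendritic cell markers listed, 11 fell and 2 rose with stimulation in wild type, where 41.4% of all genes fell and 40.8% rose. Their sum changed less, from 609 ± 69.4 to 471 ± 22.8 CPM in wild type, and was 517 ± 76.3 and 560 ± 13.2 in fresh and stimulated knockout. Otub1 was at 72.6, 70.8 and 45.1 CPM in fresh wild type against 25.4, 28.8 and 28.6 in fresh knockout, and at 85.7, 100.1 and 96.1 against 16.2, 13.8 and 14.5 after stimulation, so no knockout library reached a wild-type library of its state. Y-linked genes summed to 284 to 433 CPM in 3 libraries (replicate 3 of fresh wild type, replicate 2 of fresh knockout and replicate 3 of stimulated knockout) and to at most 0.484 CPM in the others, which means that each of these 3 groups holds samples of at least 2 animals.

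In GRCm38 (GENCODE M21) 8 of the 10 genes lie on chromosome 17, in or near the MHC: Tapbp (33915899 to 33929292, plus strand), H2-K1 (33996017 to 34000347, minus), Tap1 (34187553 to 34197225, plus), Tap2 (34203527 to 34216321, plus), H2-D1 (35262730 to 35267499, plus), H2-Q7 (35439155 to 35443773, plus), H2-Q10 (35470089 to 35474563, plus) and H2-T23 (36029773 to 36032855, minus). B2m lies on chromosome 2 (122147686 to 122153083, plus) and Nlrc5 on chromosome 8 (94434356 to 94527272, plus). All 10 are annotated as protein coding.

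The promoters of 4 of these genes are shown because their levels behaved differently below: H2-K1 and B2m, the most abundant, H2-Q10, the most different between genotypes, and H2-Q7, which was not counted. Each is the 250 bases before the gene's start in RefSeq's GRCm38.p6 table, 5′ to 3′ on the gene's strand, and capitals mark matches on either strand to GGGATTCCC (the core of an NF-kappaB site), TTTCNNTT (the core of an interferon-stimulated element), TGACG (the core of a cyclic AMP response element) or CCAAT (the CCAAT box). They lie at chr17:34000348-34000597 (H2-K1), chr17:35438905-35439154 (H2-Q7), chr17:35469839-35470088 (H2-Q10) and chr2:122147437-122147686 (B2m).
H2-K1: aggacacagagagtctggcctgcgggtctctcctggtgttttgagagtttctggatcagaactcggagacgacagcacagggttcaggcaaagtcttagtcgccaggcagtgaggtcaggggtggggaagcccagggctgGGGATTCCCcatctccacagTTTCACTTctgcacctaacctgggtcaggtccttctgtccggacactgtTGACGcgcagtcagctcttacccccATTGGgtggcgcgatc
H2-Q7: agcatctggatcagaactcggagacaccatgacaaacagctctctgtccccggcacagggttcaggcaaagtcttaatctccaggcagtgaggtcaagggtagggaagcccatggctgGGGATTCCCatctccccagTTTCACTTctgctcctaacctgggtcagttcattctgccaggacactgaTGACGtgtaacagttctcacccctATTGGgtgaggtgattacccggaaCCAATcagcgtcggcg
H2-Q10: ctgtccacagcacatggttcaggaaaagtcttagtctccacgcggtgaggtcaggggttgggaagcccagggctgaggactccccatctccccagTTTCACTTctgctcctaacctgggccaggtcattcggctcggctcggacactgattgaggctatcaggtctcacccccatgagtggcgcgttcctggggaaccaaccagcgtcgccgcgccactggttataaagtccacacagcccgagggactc
B2m: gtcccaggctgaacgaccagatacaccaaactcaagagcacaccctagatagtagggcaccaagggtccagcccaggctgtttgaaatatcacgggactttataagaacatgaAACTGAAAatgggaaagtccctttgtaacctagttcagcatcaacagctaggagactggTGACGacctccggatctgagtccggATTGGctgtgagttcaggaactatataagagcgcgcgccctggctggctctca
Of the 8 members with a window in the table, 3 held GGGATTCCC (H2-K1, H2-D1 and H2-Q7), against 0.301% of 32851 windows of the same length. That spelling was settled after its matches were seen; with 1 more G in front, or with that G and free central bases, the same 3 members matched, against 0.0852% and 1.45% of windows. TTTCNNTT was in 6 of 8 (21.3% of all windows), TGACG in 5 of 8 (17.8%) and CCAAT in 7 of 8 (33.8%). The H2-Q10 window held TTTCNNTT alone, whereas H2-K1, H2-D1 and H2-Q7 held all 4. The windows of H2-K1, H2-D1 and H2-Q7 read much alike around these matches. Their matches are therefore not independent, and the shares do not test for enrichment among the members. These are matches of letters, not sites shown to be bound.

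Levels were first compared between genes, per kilobase of exon, within each group. In fresh wild type B2m was highest at 2550 ± 127 CPM per kilobase, followed by H2-K1 at 862 ± 44.1 and H2-D1 at 174 ± 4.93. Tapbp (137 ± 7.95) and H2-T23 (131 ± 10.7) came next and overlapped between libraries. Tap2 (80.2 ± 0.926), Tap1 (72.6 ± 5.95) and Nlrc5 (65.1 ± 6.44) followed, with overlap between each pair of neighbours, and H2-Q10 was last at 0.332 ± 0.126. After stimulation the order began in the same way, but H2-D1 (81.2 ± 9.00) stood below Tapbp (110 ± 8.20) and overlapped with H2-T23 (92.4 ± 8.10) and Tap1 (68.6 ± 4.31). By CPM, H2-K1 ranked 17th of 12759 genes in fresh wild type and 61st in stimulated wild type, and B2m 28th and 44th.

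What stimulation did to class I genes was addressed by comparing stimulated with fresh cells in each genotype. In wild type 8 of 9 members fell and none rose, and in knockout 9 of 9 tested fell (edgeR quasi-likelihood test, Benjamini-Hochberg adjusted p under 0.05 over all genes). This is set against a large background, since 41.4% of all genes were called lower in wild type and 42.2% in knockout, and 40.8% and 41.7% were called higher. The same 8 and 9 members were lower in every stimulated library than in any fresh one, as were 42.3% and 42.6% of all genes. The members' median log2 fold change was −0.50 in wild type and −0.73 in knockout, against −0.03 and −0.02 over all genes. CPM is a share of each library's counts, so these are changes relative to other transcripts, and RNA per cell was not measured. In bulk samples fewer cells of a type and less RNA per cell cannot be told apart.

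Among the abundant members the classical heavy chains had the largest fold changes. H2-K1, the H-2K heavy chain, was at 2674, 2422 and 2497 CPM in fresh wild type, 2690, 2862 and 3025 in fresh knockout, 1262, 1269 and 1343 in wild type after stimulation and 1115, 1104 and 1206 in knockout after stimulation. H2-D1, the H-2D heavy chain, was at 462, 437 and 450.3 CPM in fresh wild type, 442, 448 and 491 in fresh knockout, 183, 227 and 218 in wild type after stimulation and 190, 206 and 195 in knockout after stimulation. For both genes every fresh library lay above every stimulated one. H2-K1 changed by −0.97 on the log2 scale in wild type (SE 0.06, edgeR adjusted p = 7.38e-10) and by −1.32 in knockout (SE 0.06, edgeR adjusted p = 1.53e-11). H2-D1 changed by −1.10 (SE 0.07, edgeR adjusted p = 4.46e-10) and −1.23 (SE 0.07, edgeR adjusted p = 1.07e-10).

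B2m, the light chain of class I molecules, fell as well. It was at 2291, 2075 and 2212 CPM in fresh wild type, 2219, 2171 and 2307 in fresh knockout, 1476, 1556 and 1535 in wild type after stimulation and 1405, 1476 and 1340 in knockout after stimulation. Stimulated libraries again lay below all fresh ones (log2 fold change −0.53 in wild type and −0.67 in knockout, SE 0.06 each, edgeR adjusted p = 4.75e-07 and 2.58e-08). The ratio of H2-K1 to B2m CPM was 1.15 ± 0.0219 in fresh and 0.848 ± 0.0301 in stimulated wild type, and 1.28 ± 0.0593 and 0.814 ± 0.0779 in knockout. Neither pair overlapped, at an exact two-sided permutation p of 0.1, the smallest that 3 against 3 libraries allow (adjusted p = 0.167 over 20 such tests). H2-T23, the Qa-1 heavy chain that presents leader peptides to CD94/NKG2 receptors, was at 413, 353 and 369 CPM in fresh wild type, 383, 394 and 414 in fresh knockout, 243, 290.0 and 267 in wild type after stimulation and 236, 242 and 240.1 in knockout after stimulation. It fell by 0.50 and 0.73 on the log2 scale in wild type and knockout (SE 0.07 each, edgeR adjusted p = 2.85e-06 and 3.21e-08).

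**Figure D1:**
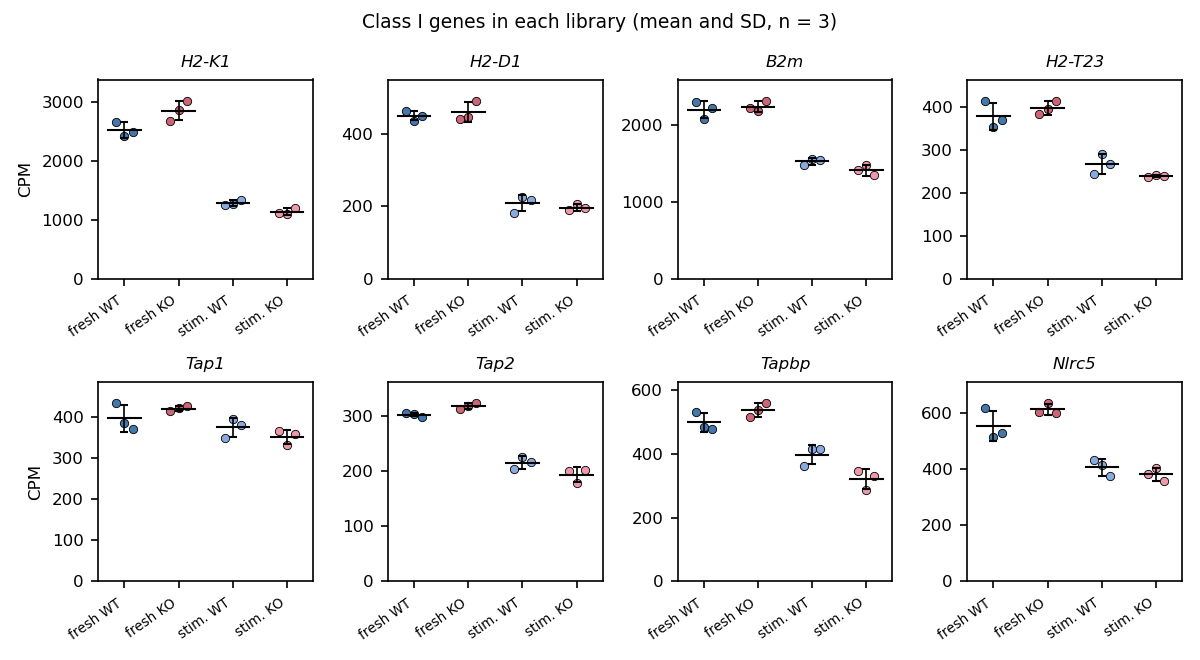
CPM of 8 class I genes in each library, by group, on a linear axis from 0, with points for libraries, a line for the mean and bars for the SD (n = 3). The fresh libraries of H2-K1 sit between 2422 and 3025 CPM and the stimulated ones between 1104 and 1343, whereas Tap1 overlaps between fresh and stimulated wild type.

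The peptide transporter has a chain from Tap1 and a chain from Tap2, and only that of Tap2 was called in both genotypes. Tap1 was at 434, 387 and 372 CPM in fresh wild type, 416, 422 and 427 in fresh knockout, 349.9, 396 and 381 in wild type after stimulation and 366, 332 and 359 in knockout after stimulation. It was not called in wild type, where the groups overlapped (log2 fold change −0.08, 95% interval −0.21 to 0.05, edgeR adjusted p = 0.228), and fell in knockout (−0.26, SE 0.06, edgeR adjusted p = 0.00106). Tap2 was at 306, 304 and 299 CPM in fresh wild type, 313, 318 and 324 in fresh knockout, 204, 227 and 216 in wild type after stimulation and 200.4, 178 and 203 in knockout after stimulation. It fell by 0.49 and 0.71 on the log2 scale (SE 0.05 each, edgeR adjusted p = 2.86e-07 and 2.64e-09). The ratio of Tap1 to Tap2 CPM was 1.31 ± 0.0944 and 1.33 ± 0.00611 in fresh wild type and knockout and 1.74 ± 0.0239 and 1.82 ± 0.0479 after stimulation, with no overlap (exact permutation p = 0.1, the smallest possible, adjusted p = 0.167). Tap1 overlaps Psmb9, an immunoproteasome gene on the other strand, and whether counting used strand is not given in the sources used here. Psmb9 was not called in either stimulation comparison, at 114 ± 7.25 CPM in fresh and 125 ± 10.1 in stimulated wild type.

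Tapbp, which encodes tapasin, and Nlrc5, the transactivator of class I genes, completed the group. Tapbp was at 531, 485.0 and 478 CPM in fresh wild type, 515, 538 and 558 in fresh knockout, 363, 415 and 414 in wild type after stimulation and 347.5, 285 and 331 in knockout after stimulation. It changed by −0.33 on the log2 scale in wild type (SE 0.07, edgeR adjusted p = 0.000634) and by −0.74 in knockout (SE 0.07, edgeR adjusted p = 9.91e-08). Nlrc5 was at 615, 515 and 528 CPM in fresh wild type, 602, 633 and 599 in fresh knockout, 430.3, 412 and 373 in wild type after stimulation and 384, 402 and 356 in knockout after stimulation. It fell by 0.45 and 0.68 on the log2 scale (SE 0.07 each, edgeR adjusted p = 2.5e-05 and 1.94e-07), with every stimulated library below every fresh one.

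The fresh libraries also held transcripts of other cells that express class I, and these moved with stimulation. All 11 class II presentation genes fell in both genotypes, where 41.4% of all genes fell in wild type and 42.2% in knockout (40.8% and 41.7% rose). Their summed level went from 1704 ± 153 to 113 ± 8.14 CPM in wild type and from 1474 ± 299 to 99.2 ± 14.6 in knockout. Summed B cell markers (10 of 11 listed were measured) went from 181 ± 14.9 to 32.8 ± 3.14 CPM in wild type and from 205 ± 35.3 to 29.3 ± 4.25 in knockout, and summed myeloid markers from 58.8 ± 12.3 to 4.25 ± 0.651 and from 50.5 ± 14.5 to 3.66 ± 0.0477. Summed NK cell markers rose, from 74.1 ± 8.43 to 173 ± 16.0 CPM in wild type and from 108 ± 15.5 to 168 ± 12.5 in knockout. Of 5 tested, Eomes rose and 3 fell in each genotype. Summed CD4 T cell markers went from 65.7 ± 8.31 to 84.6 ± 18.9 CPM in wild type and from 62.2 ± 4.955 to 130.5 ± 50.4 in knockout. Of these 5, 2 rose and 2 fell in each genotype. Of 14 dendritic cell markers 11 fell and 2 rose in wild type, and 11 fell and 3 rose in knockout. Their sum was 609 ± 69.4 and 471 ± 22.8 CPM in fresh and stimulated wild type and 517 ± 76.3 and 560 ± 13.2 in knockout. Of 11 T cell markers 10 fell in each genotype as well, and 1 rose in wild type. Their sum went from 6676 ± 126 to 3187 ± 40.9 CPM in wild type and from 6861 ± 136 to 2747 ± 115 in knockout. The part of these shifts in the class I values was not tested.

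**Figure D2:**
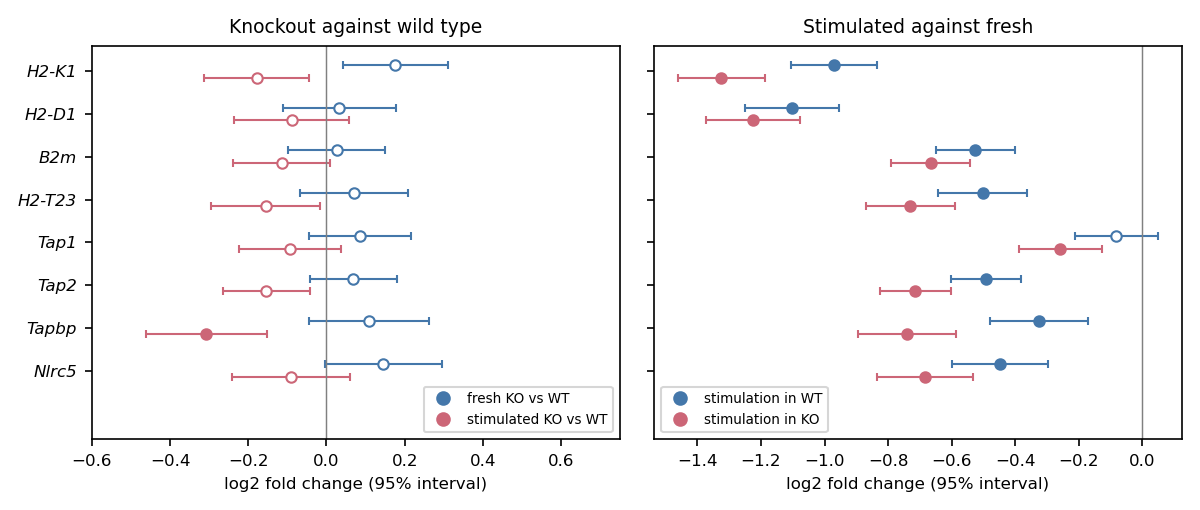
Log2 fold changes with 95% intervals for 8 class I genes: knockout against wild type in fresh (blue) and stimulated (red) cells on the left, stimulated against fresh in wild type (blue) and knockout (red) on the right. Filled points were called; on the left only Tapbp in stimulated cells is filled, at −0.31, and on the right Tap1 in wild type is the only open point.

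The effect of Otub1 loss in unstimulated cells was addressed next. Of 9 members H2-Q10 alone was called, where 1.2% of all genes were, and it was higher in fresh knockout (edgeR adjusted p = 0.00992), as were 0.98% of all genes. The other 8 had log2 fold changes from 0.03 (B2m) to 0.18 (H2-K1), all above 0, with edgeR adjusted p from 0.212 to 0.9. Their 95% intervals reached from −0.11 to 0.31, so a rise of more than 24.0% or a fall of more than 7.47% lay outside the interval of each. For H2-K1, H2-Q10 and Tap2 all knockout libraries lay above all wild-type ones, 3 of 9 members where 10.6% of all genes did so. The members' median was 0.08, against −0.0002 over all genes.

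Fresh wild-type replicate 1 held the highest level of all 8 abundant members among the fresh wild-type libraries, and it also held the most interferon response transcripts, 4615 CPM over 31 genes against 2994 and 3032 in the others and 4266 to 4554 in fresh knockout. None of those 31 genes was called between the fresh genotypes by edgeR, where 1.2% of all genes were. All 31 estimates were above 0, against 49.9% over all genes, but genes measured in the same libraries are not independent. Without that library the log2 fold change of Nlrc5 was 0.24 in place of 0.15 and that of Tap1 0.16 in place of 0.08, with edgeR adjusted p of 0.115 and 0.24; H2-T23 was at 0.14 in place of 0.07, B2m at 0.06 in place of 0.03 and H2-D1 at 0.06 in place of 0.03, none of them called.

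After stimulation the estimates of the abundant members pointed the other way. All 8 were below 0 in knockout against wild type, from −0.09 (H2-D1) to −0.31 (Tapbp). Tapbp fell, from 397.5 ± 29.7 to 321 ± 32.4 CPM (SE 0.07, edgeR adjusted p = 0.0154, lower in every library), and was the only member called lower, where 4.22% of all genes were. It lost the call without stimulated wild-type replicate 2 or 3 or stimulated knockout replicate 2 (edgeR adjusted p = 0.0682, 0.0802 and 0.0543). H2-K1 (−0.18), Tap2 (−0.15), H2-T23 (−0.16) and B2m (−0.11) had no overlap between the genotypes but were not called (edgeR adjusted p = 0.0955, 0.0814, 0.156 and 0.253); 5 of 9 members were lower in every knockout library, where 13.1% of all genes were. H2-D1, Tap1 and Nlrc5 overlapped and were at −0.09 each. Leaving out 1 library moved these estimates, from −0.03 (without stimulated wild-type replicate 2) to −0.18 (without replicate 1) for H2-D1, from −0.05 (without stimulated knockout replicate 2) to −0.14 (without stimulated wild-type replicate 1) for Tap1 and from −0.05 (without stimulated wild-type replicate 1) to −0.15 (without replicate 3) for Nlrc5, none of them called. H2-T23 ran from −0.09 without stimulated wild-type replicate 2 to −0.22 without replicate 1, where it was called (edgeR adjusted p = 0.0417), as was Tap2 at −0.19 (edgeR adjusted p = 0.0389; −0.10 without stimulated knockout replicate 2). The 95% intervals of the 7 uncalled members ran from −0.31 to 0.06, which leaves room for a fall of up to 19.5% and a rise of up to 4.18%.

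Tapbp shares 23.2% of its 50-base windows with other annotated transcripts, most with Gm19412 (20.28%), an antisense gene on the other strand. The level of Gm19412 was not compared, and the strand setting of the counting is not given. Tapbp also overlaps Zbtb22 on the same strand. After stimulation Zbtb22 was at 23.4 ± 1.04 CPM in wild type and 22.2 ± 1.78 in knockout and was not called between them (log2 fold change −0.07, edgeR adjusted p = 0.637). The ratio of Tapbp to Tap1 CPM was 1.06 ± 0.0253 in wild type and 0.910 ± 0.0465 in knockout after stimulation, without overlap (exact permutation p = 0.1, adjusted p = 0.167), against 1.255 ± 0.0315 and 1.27 ± 0.034 in the fresh groups.

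Whether the genotype effect itself differed between the states was tested as an interaction. Tapbp was called (difference of log2 fold changes −0.42, SE 0.10, edgeR adjusted p = 0.0473), 1 of 9 members where 1.56% of all genes were called in that direction. H2-K1 came close to the threshold (−0.35, SE 0.09, edgeR adjusted p = 0.0522). The other abundant members ranged from −0.12 (H2-D1) to −0.24 (Nlrc5) and were not called. Of 11 T cell markers 3 were called in the same direction (Cd3d −0.35, Cd3e −0.27 and Cd3g −0.40), and their part in the class I values was not tested. Neither Tapbp nor H2-K1 stayed on its side of the threshold: over 17 alternatives Tapbp was called in 7 (edgeR or DESeq2 adjusted p 0.00402 to 0.167) and H2-K1 in 6 (0.000908 to 0.147). Without the 3 libraries with Y-linked reads Tapbp was at −0.41 (edgeR adjusted p = 0.167). With them left out 67 of 12827 genes were called lower in all, against 199 of 12759 with all 12 libraries. The summed level of the 10 genes was 7305 ± 384 and 7842 ± 286 CPM in fresh wild type and knockout and 4685 ± 151 and 4234 ± 9.07 after stimulation, or 0.731%, 0.784%, 0.4685% and 0.423% of counts.

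H2-Q10, which encodes a secreted class I chain best known from liver, had the largest genotype differences of the members and was the only member with an estimate above 0 in stimulated knockout. It had 27, 17 and 28 counts in fresh wild type, 79, 110 and 100 in fresh knockout, 3, 5 and 1 in wild type after stimulation and 23, 33 and 31 in knockout after stimulation. These are 1.64, 0.823 and 1.86 CPM, 4.10, 4.98 and 4.79 CPM, 0.150, 0.241 and 0.0416 CPM, and 0.890, 1.73 and 1.33 CPM in that order. Every knockout library stood above every wild-type library of its state. In fresh cells it rose by 1.72 on the log2 scale (SE 0.29), the 26th highest of 12759 genes, and 289 against 72 counts give a ratio of 3.36 (95% exact interval 2.59 to 4.42, counting error only). After stimulation it rose by 3.16 (SE 0.48, edgeR adjusted p = 0.00111), the 13th highest, and 87 against 9 counts give a ratio of 9.18 (4.62 to 20.8), where 5.08% of all genes were called higher. Without fresh wild-type replicate 2, which had the fewest counts in its group, the fresh difference was 1.41 and no longer called (edgeR adjusted p = 0.0605). Over all genes 21 were called higher in fresh knockout without that library, against 125 with it. Stimulation lowered H2-Q10 in both genotypes, by 3.28 and 1.84 on the log2 scale (edgeR adjusted p = 1.44e-05 and 1.61e-05), and its interaction was not called (1.44, SE 0.61, edgeR adjusted p = 0.248).

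**Figure D3:**
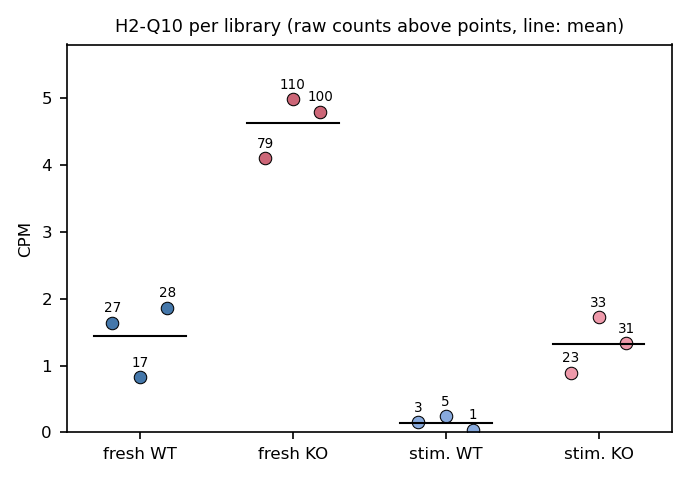
H2-Q10 in CPM for each library by group, on a linear axis from 0, with the raw count printed above each point and a line at the group mean (n = 3). Fresh knockout libraries lie between 4.10 and 4.98 CPM and fresh wild type between 0.823 and 1.86, and stimulated wild type has 1 to 5 counts per library.

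The tested neighbours of H2-Q10 had smaller fold changes in both states. Within 200 kilobases 16 other genes were listed and 7 tested. None was called between the fresh genotypes by edgeR, where 1.2% of all genes were. After stimulation 1 was called, where 5.08% of all genes were called higher and 4.22% lower. It was Tcf19, a cell cycle gene (log2 fold change 0.34, edgeR adjusted p = 0.0318). Counts over 7 genes cannot be told apart from such shares. The nearby class I genes H2-Q4 and H2-Q5 were at 0.24 and 0.32 in fresh cells and at −0.02 and −0.03 after stimulation (edgeR adjusted p = 0.0819, 0.153, 0.9 and 0.896). H2-Q10 shares 19.1% of its 50-base windows with other transcripts, most with H2-Q7 (13.99%), and such reads can be lost or split in counting. H2-Q7, a Qa-2 heavy chain, shares 26.45% of its windows, and H2-Q6, H2-Q8 and H2-Q9 were at 0 in every library too, as were H2-L, H2-T9 and H2-M9. GENCODE M21 has no gene named H2-Q8, H2-Q9, H2-L or H2-T9, so that share leaves out windows shared with them. The annotation used in counting is not given, and whether it set these counts to 0 was not tested. A count of 0 allows up to 3 counts, 0.116 to 0.199 CPM of gene counts in these libraries, for reads that the counting could assign; reads that aligned to several places made up 2.95% to 3.92% of the totals.

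Other class I and class I-like heavy chains fell with stimulation too. Of 24 listed, 14 were tested, and 12 fell and 1 rose in wild type (41.4% and 40.8% of all genes did), 13 and 1 in knockout (42.2% and 41.7%), with a median of −1.39 and −1.61. H2-T10 went from 71.3 ± 5.13 to 27.1 ± 0.769 CPM in wild type, Mr1, which presents vitamin metabolites, from 17.8 ± 1.54 to 4.135 ± 0.413, Cd1d1, which presents lipids, from 34.5 ± 2.52 to 4.03 ± 0.58, and Fcgrt, the neonatal Fc receptor chain, from 37.1 ± 6.96 to 0.714 ± 0.0763. Between genotypes Fcgrt was the 1 of 14 called in fresh cells, where 0.98% of all genes were called higher. It was higher in knockout at 60.9 ± 6.88 CPM (by 0.72 on the log2 scale, SE 0.12, edgeR adjusted p = 0.0104). The call was lost without fresh wild-type replicate 2 (edgeR adjusted p = 0.0752). After stimulation 1 of the 14 was called, also higher in knockout, where 5.08% of all genes were. Its average log2 CPM was under 2, so it is not named.

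Most genes of the steps before and beside TAP rose with stimulation. All 6 constitutive proteasome subunits rose in both genotypes (median 1.30 in wild type and 1.28 in knockout), where 40.8% and 41.7% of all genes rose, among them Psma7, from 104 ± 2.31 to 290.1 ± 23.7 CPM in wild type. Of 6 genes of immunoproteasome subunits and proteasome activators, 4 rose and 1 fell in wild type, and 3 rose and 1 fell in knockout. The 3 that rose in knockout were the activators Psme1, Psme2 and Psme3, which rose in wild type too. Of the immunoproteasome subunits none rose in knockout, Psmb10 fell in both genotypes and Psmb9 was called in neither. In wild type Psme3 went from 171 ± 4.12 to 505 ± 12.7 CPM, and Psmb10, a catalytic subunit of the immunoproteasome, from 142.5 ± 7.56 to 62.1 ± 3.36. Psmb10 was also the 1 of these 6 called between stimulated genotypes, lower in knockout at 47.1 ± 4.51 CPM (by −0.40 on the log2 scale, SE 0.07, edgeR adjusted p = 0.00446). Of 8 chaperones and trimming genes 6 rose and 1 fell in wild type, against 40.8% and 41.4% of all genes, with calnexin (Canx) at 300.2 ± 3.00 and 616 ± 13.5 CPM in fresh and stimulated wild type. Erap1, the aminopeptidase that trims peptides for class I, was lower in stimulated knockout than in stimulated wild type, at 269.6 ± 6.85 against 320.2 ± 10.7 CPM (by −0.25 on the log2 scale, SE 0.04, edgeR adjusted p = 0.00252).

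**Figure D4:**
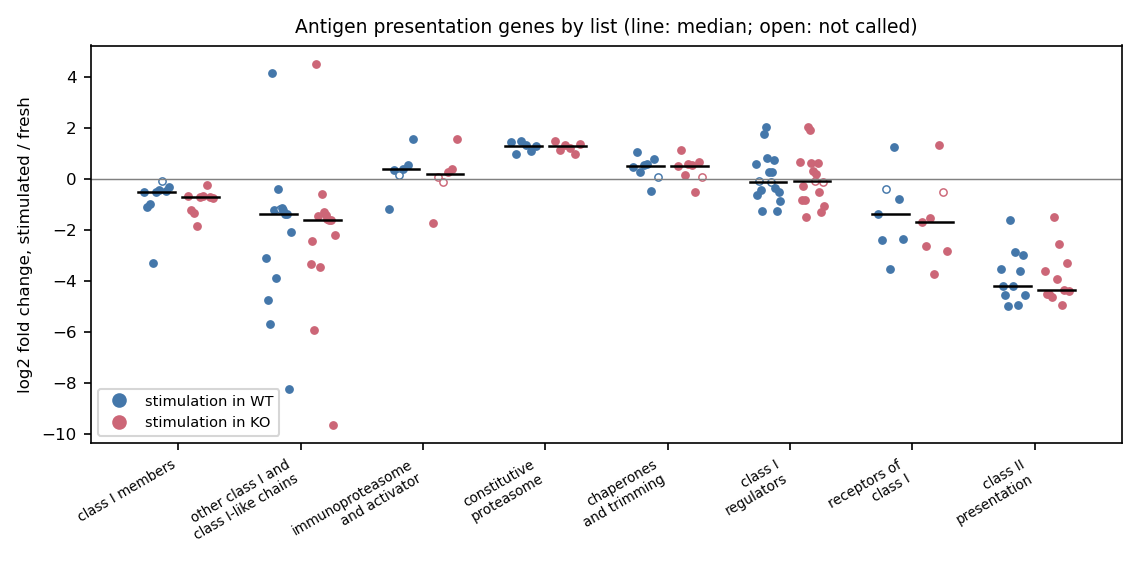
Log2 fold change of stimulated against fresh cells for the tested genes of 8 lists, in wild type (blue) and knockout (red), with a line at each list's median and open points for genes not called. Constitutive proteasome subunits lie above 0 and class II genes below −1, and the lowest point, Hfe, had 0 counts in stimulated knockout, so its fitted value is not a bound.

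Among 16 regulators of class I genes 7 rose and 7 fell with stimulation in wild type, as did 7 and 7 in knockout; this is near the share of all genes, of which 40.8% rose and 41.4% fell in wild type and 41.7% and 42.2% in knockout. Nfkb2 and Nfkb1, subunits of NF-kappaB, rose by 2.01 and 1.76 in wild type, whereas Irf9, a transcription factor of interferon signalling, fell by 1.26 and Rfxank, a subunit of the RFX complex at MHC promoters, by 1.27. Between stimulated genotypes Irf2, an interferon regulatory factor, was lower in knockout (−0.25), and Nfkb1 (0.27) and Nfkb2 (0.25) were higher (edgeR adjusted p = 0.0299, 0.00564 and 0.0153). Over 12 alternatives Irf2 was called in 5 (edgeR or DESeq2 adjusted p 0.0111 to 0.12), Nfkb2 in 10 and Nfkb1 in 12; Irf2 was lost without stimulated wild-type replicate 1, 2 or 3 or stimulated knockout replicate 2 or 3, and Nfkb2 without stimulated knockout replicate 3. In fresh knockout Nfkb2 was the 1 called, at 0.36 (edgeR adjusted p = 0.0114, or 0.0609 without fresh wild-type replicate 2). Ifng, the cytokine that induces class I genes, was at 243.8 ± 48.0 CPM in wild type and 540.6 ± 80.2 in knockout after stimulation (log2 fold change 1.15, edgeR adjusted p = 0.000106). Of the 31 interferon response genes, which include it, only Ifng itself was called higher in stimulated knockout, where 5.08% of all genes were. The 4 others called were lower, where 4.22% of all genes were. Of 7 tested receptors of class I molecules, Cd8a was lower in stimulated knockout (−0.31), Klrd1 was lower (−0.33) and Klrc1 higher (0.52), with edgeR adjusted p of 0.0155, 0.0477 and 0.0312; the last 2 encode the chains of the receptor for the H2-T23 product. The Klrd1 groups overlapped, and over 12 alternatives Klrd1 was called in 6 (edgeR or DESeq2 adjusted p 0.00794 to 0.162), Klrc1 in 5 (0.0233 to 0.163) and Cd8a in 9 (0.000558 to 0.0646). Each of the 3 was lost without stimulated knockout replicate 3, Klrc1 also without stimulated wild-type replicate 1, 2 or 3 or stimulated knockout replicate 2, and Klrd1 also without stimulated wild-type replicate 1 or 3 or stimulated knockout replicate 1.

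Genes whose levels followed the members from library to library were sought after subtracting each group's mean from log2 CPM. Over 12 libraries, the highest Pearson correlations with the members' mean among 7784 genes were Tmem192 (0.93), Trim32 (0.92), Klhl18 (0.91), Pdxp (0.88), Zfp113 (0.85), Ccdc53 (0.84), Eif4ebp1 (0.83) and Rnf113a2 (0.83). H2-Q10 has the widest spread and weighs on this mean. With H2-Q10 left out, an alternative chosen after seeing the data, the list began with Surf1 (0.93), Nfkbid (0.90) and Rnf114 (0.89). Within the set H2-T23 followed the mean of the other members most closely, at 0.84 with H2-Q10 and 0.92 without it. These values share libraries and depth and are a description.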

How the data were processed

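The authors deposited 1 table of raw counts per gene for each of 12 libraries, whole numbers without normalization, and TopHat2, HTSeq, DESeq2 and the mm10 build appear in the submitters' processing notes. The sources used here do not state versions, annotation or strand setting. Summary lines (5.22% to 6.43% of each file's total) were left out. No pair of replicates agreed within sampling noise (chi-square over its degrees of freedom 4.26 to 18.6).

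Groups came from the source labels, and replicate numbers follow deposit order and pair nothing. In R 4.3.3, genes were filtered with filterByExpr and scaled by TMM (factors 0.988 to 1.01), and 1 quasi-likelihood model over all 12 libraries (edgeR 4.0.16, 8 residual degrees of freedom) gave the contrasts. A gene was called at a two-sided Benjamini-Hochberg adjusted p under 0.05 over 12759 genes. The test was checked on simulated counts. The members and gene lists were chosen with earlier results of these data known, and 1 regulator is not reported here. All members are named, and from each other list up to 4 called genes with the largest change and an average log2 CPM of at least 2. Alternatives were DESeq2 1.42.0, RLE factors, library size only, no filter, 2-group fits, leaving out each library, and leaving out libraries with Y-linked reads.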

Additional observations from a re-analysis of the deposited data

Results flagged for a closer look

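By a test of that difference, the genotype effect differed between fresh and stimulated cells for 1 class I member and 12 other genes. These were counted over the gene lists used here and Otub1. They were 1 of 9 tested members, 1 of 6 immunoproteasome and activator genes, 1 of 16 regulators and 4 of 31 interferon response genes. Among markers they were 3 of 11 for T cells, 1 of 10 for B cells and 1 of 5 for NK cells. Over all tested genes 1.56% were called in the same direction. The lists were chosen with earlier results of these data known, and Otub1 is the deleted gene. The count is therefore not a fair comparison with that share. For Tapbp, tapasin, the difference of log2 fold changes (stimulated minus fresh) was −0.42. It was −0.54 for Psmb10 of the immunoproteasome. Among regulators it was −0.39 for Irf2. Among interferon response genes it was −1.61 for Ifit3, −0.73 for Gbp7, −0.62 for Ddx58, a sensor of viral RNA, and −0.53 for Gbp4. Among markers of other lists it was −0.35 for Cd3d, −0.40 for Cd3g and −0.27 for Cd3e, chains of the T cell receptor complex, −0.87 for Cd22, a surface lectin of B cells, and −0.67 for Eomes, a transcription factor of NK and CD8 T cells. Otub1 itself was at −1.47, since its level in knockout was further below wild type after stimulation. Without fresh wild-type replicate 1, which had the most interferon response transcripts of its group, Irf2 and Cd3e were no longer called (edgeR adjusted p = 0.0566 and 0.0654). With the 3 libraries that held Y-linked reads left out, 9 of the 13 were no longer called (edgeR adjusted p 0.0877 for Eomes to 0.259 for Irf2). Calls in that direction over all genes also fell, to 67 of 12827 genes from 199 of 12759 with all 12 libraries. Psmb10, Cd3d and Otub1 were called in 17 of 17 alternatives, and the others in 5 (Cd3e) to 15 (Cd3g).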

How the results depend on the processing

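The calls of the members in both stimulation comparisons were the same under all 12 alternatives of each. Between fresh genotypes the count of members called higher was 0 to 1 when libraries were left out; at 0, without fresh wild-type replicate 2, H2-Q10 had an unadjusted p of 0.000235, and DESeq2 on all libraries called it. When libraries were left out the fresh estimate ran from −0.0098 (without fresh knockout replicate 3) to 0.0693 for H2-D1 and from −0.0039 (without fresh wild-type replicate 2) to 0.0639 for B2m, neither called. Between stimulated genotypes the count called lower was 2 with DESeq2, which added H2-K1 (DESeq2 adjusted p = 0.0236), and 0 to 3 when libraries were left out: 3 without stimulated wild-type replicate 1, 0 without stimulated wild-type replicate 2 or 3 or stimulated knockout replicate 2. For the interaction the count called lower was 2 with DESeq2, with RLE factors, with library size only and with no filter, 0 without the libraries with Y-linked reads, and 0 to 2 when libraries were left out. H2-Q10 was called higher in stimulated knockout in 12 of 12 alternatives (2.68 to 3.74). The summed level of the members in stimulated knockout was 4197 CPM with library size only. With H2-Q10 left out of the mean, the highest correlation was 0.93. The causes were not tested. With 1 to 5 counts per library, the level of H2-Q10 in stimulated wild type is limited by depth. No paired analysis was possible because the replicate numbers follow deposit order and the labels name no shared animal or batch.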
